A study of Caenorhabditis elegans with 2 samples.

Results

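The nuclear genes of the mitochondrial respiratory chain were examined for binding of HLH-30 in Caenorhabditis elegans. They are 34 genes, named by the subunits they encode and not by any measured value, out of 19973 protein-coding genes on the nuclear chromosomes. Of these, 8 encode subunits of complex I, 4 of complex II, 4 of complex III, 7 of complex IV and 10 of complex V, and 1 encodes cytochrome c. All 34 symbols were found in the gene models. Chromatin came from whole hermaphrodites of strain OP433 collected as late embryos, whose age the labels give as unknown. The strain carries unc-119(tm4063) on chromosome III and the transgene wgIs433, from which HLH-30 is made fused at its C-terminal end to GFP-FLAG, and an antibody to GFP was used to precipitate the chromatin. All values come from this 1 transgenic line, in a single group of 2 biological replicates with no other strain, stage or treatment, and the control experiment that the labels name was not analysed here. The embryos mix all tissues, so strong binding in few cells and weak binding in many cannot be told apart.

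The respiratory chain sits in the inner mitochondrial membrane. Complexes I and II pass electrons from NADH and succinate to ubiquinone, complex III passes them to cytochrome c, and complex IV passes them to oxygen. Complex V, the ATP synthase, uses the proton gradient built on the way to make ATP. A few subunits are encoded by mitochondrial DNA, and the others, among them all the genes described here, by the nucleus. HLH-30 is the worm member of the TFEB family of basic helix-loop-helix leucine zipper factors, which is known for the control of lysosome and autophagy genes and for recognising the E-box CACGTG.

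A gene was counted as bound when the summit of a peak lay at most 1000 bp upstream or at most 200 bp downstream of a start annotated for that gene. The optimal list of 1959 peaks, which the authors made from both replicates together, put such a summit at 12 of the 34 genes, 35.3% (exact 95% interval 19.7 to 53.5%). Over all protein-coding genes the same list reached 6.65%. The 12 genes were nuo-1, sdha-1, cyc-1, isp-1, ucr-2.1, cox-5A, cox-5B, cox-6B, atp-1, atp-3, atp-5 and asb-2, so every complex had at least 1 bound subunit gene. The strength of their peaks was ordinary for the list. The authors' peak signal at the 12 genes ran from 49.7 to 129 with a median of 70.8, whereas all 1328 bound genes had a median of 76.7 and a highest value of 876.

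The sequences under these summits are shown because the words found there are counted next. They are given for 7 of the 8 bound genes whose 101 bases around the summit touch no exon of a protein-coding gene, with cyc-1 named only, read from the RefSeq sequence of WBcel235, the assembly of ce11, 5′ to 3′ on the gene's strand. Capitals mark matches on either strand to the E-box CACGTG, its variant CATGTG, the repeat word GAGAGA, and also CGTCTC as well as ACGCAG, all chosen with earlier results of these peaks known. The last line is the summit upstream of fum-1, the fumarase gene of the citric acid cycle, shown for contrast because it holds the E-box. The windows are chrII:11097520-11097620 for nuo-1, chrX:8546220-8546320 for sdha-1, chrIV:8136282-8136382 for isp-1 and chrX:12018096-12018196 for ucr-2.1. Those of cox-5A, cox-6B, asb-2 and fum-1 are chrIII:12905133-12905233, chrIII:2785977-2786077, chrX:4469411-4469511 and chrIII:7465387-7465487. The genes sdha-1 and isp-1 lie on the minus strand and the others on the plus strand.
nuo-1: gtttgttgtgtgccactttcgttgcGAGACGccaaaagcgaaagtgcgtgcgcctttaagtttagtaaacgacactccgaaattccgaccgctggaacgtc
sdha-1: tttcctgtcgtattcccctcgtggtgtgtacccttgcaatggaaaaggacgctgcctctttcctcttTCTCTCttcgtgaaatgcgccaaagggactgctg
isp-1: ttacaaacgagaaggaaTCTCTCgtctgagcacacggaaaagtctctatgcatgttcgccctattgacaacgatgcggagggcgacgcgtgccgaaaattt
ucr-2.1: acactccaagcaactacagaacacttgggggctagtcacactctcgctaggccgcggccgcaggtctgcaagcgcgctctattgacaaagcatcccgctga
cox-5A: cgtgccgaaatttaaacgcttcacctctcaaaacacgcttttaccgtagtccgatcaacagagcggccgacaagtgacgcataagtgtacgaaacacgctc
cox-6B: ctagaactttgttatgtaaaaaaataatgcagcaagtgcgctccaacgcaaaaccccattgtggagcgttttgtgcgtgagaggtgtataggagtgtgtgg
asb-2: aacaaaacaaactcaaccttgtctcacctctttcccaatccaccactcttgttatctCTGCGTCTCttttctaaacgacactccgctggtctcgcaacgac
fum-1: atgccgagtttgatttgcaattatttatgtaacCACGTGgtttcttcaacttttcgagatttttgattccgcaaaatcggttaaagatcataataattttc

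None of the 12 bound genes had CACGTG within 50 bp of its summit. The E-box lay that close in 428 of the 1959 optimal peaks, 21.8%, and at the strongest summit of 16.2% of all bound genes. CATGTG was at none of the 12 either, against 17.1% of optimal peaks. The other hexamers were found at a few summits each. GAGAGA lay at sdha-1 and isp-1, 16.7% against 30% of optimal peaks, and CGTCTC at nuo-1 and asb-2, 16.7% against 22.7%. ACGCAG lay at cyc-1, atp-3 and asb-2, 25% against 20.5%, and in asb-2 it overlaps CGTCTC in the capitals above. No match to any of the 5 words was present at 6 of the 12, which were ucr-2.1, cox-5A, cox-5B, cox-6B, atp-1 and atp-5. Such summits made up 28.8% of the optimal list. At the strongest summits of all bound genes, CATGTG stood at 13.2%, GAGAGA at 27%, CGTCTC at 21.5% and ACGCAG at 21.4%. The share of all bound genes with none of the words was not computed. With only 12 summits the counts at the members are small. They were not tested and are not a result that sets the bound members apart.

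The same words were also counted in the whole windows, which uses no peak. CACGTG lay anywhere from 1000 bp upstream to 200 bp downstream of a start in 3 of the 34 genes, nuo-3, ucr-2.1 and atp-5, 8.82%, against 21.5% of all protein-coding genes. CATGTG lay in 6 of 34, 17.6% against 37.2%. GAGAGA lay in 19 of 34, 55.9% against 54.7%, CGTCTC in 15 of 34, 44.1% against 35.2%, and ACGCAG in 8 of 34, 23.5% against 27.1%. These shares were not tested, and a match of letters does not show a binding site.

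**Figure D1:**
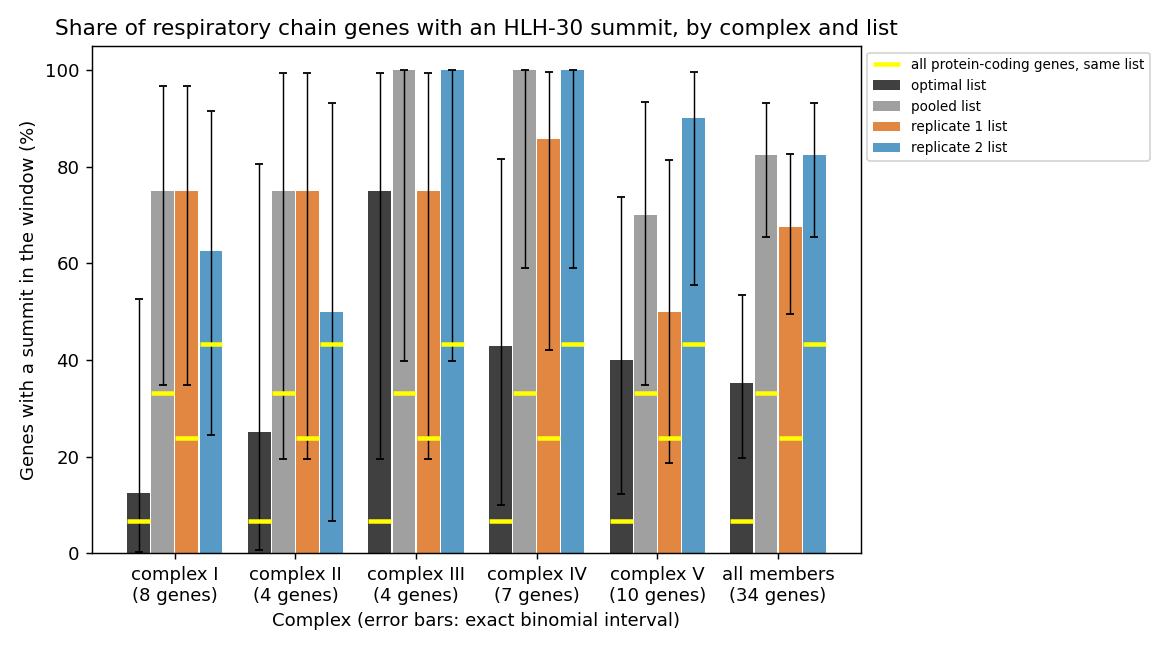
Percentage of genes with a summit in the window for complexes I to V and for all 34 genes, in the optimal, pooled and both replicate lists, with exact 95% binomial intervals as error bars and a yellow line for all protein-coding genes in the same list. In the optimal list, complex I stands at 12.5% and complex III at 75%, with wide and overlapping intervals.

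The complexes differed in how many of their genes had an optimal peak, but each has few genes and the intervals overlap. Complex III had 3 of 4, 75% (exact 95% interval 19.4 to 99.4%), complex IV 3 of 7, 42.9% (9.9 to 81.6%), and complex V 4 of 10, 40% (12.2 to 73.8%). Complex II had 1 of 4, 25% (0.631 to 80.6%), and complex I 1 of 8, 12.5% (0.316 to 52.7%). The share of all genes, 6.65%, lies inside the intervals of complexes I and II, whose counts cannot be told apart from it. The cytochrome c gene cyc-2.1 had none. Genes are not replicates of a condition, so no test between complexes was made. The order also depended on the threshold. With only the optimal peaks above the median signal, complex III had 1 of 4, 25%, and complex IV still 3 of 7, 42.9%. All genes stood at 3.61% with these peaks. The deposited name of the pooled list of 18832 peaks calls it peaks and background. Its weaker summits, at members as elsewhere, may therefore be background and not binding. In this list, which has no threshold on reproducibility, most genes of every complex had a summit. All 7 genes of complex IV and all 4 of complex III had a summit there, as did 6 of 8 in complex I, 3 of 4 in complex II, 7 of 10 in complex V and cyc-2.1. The total was 28 of 34, 82.4% (65.5 to 93.2%), against 33.1% of all genes.

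The replicate lists can be read on their own. The replicate 1 list of 11695 peaks had a summit at 23 of 34, 67.6% (49.5 to 82.6%), against 23.8% of all genes. The replicate 2 list of 30000 peaks had one at 28 of 34, 82.4% (65.5 to 93.2%), against 43.2%. The 1959 strongest peaks of each replicate, a number equal to the optimal list, were also counted. Those of replicate 1 reached 13 of 34, 38.2% against 6.96% of all genes, and those of replicate 2 reached 9, 26.5% against 6.15%. Of the 12 bound genes, 8 were among the strongest peaks of both replicates, namely sdha-1, isp-1, ucr-2.1, cox-5A, cox-5B, cox-6B, atp-1 and asb-2. The other 4, nuo-1, cyc-1, atp-3 and atp-5, were among the strongest in replicate 1 and below that limit in replicate 2. Without replicate 1 the complex I count therefore went from 1 to 0, complex III from 3 to 2 and complex V from 4 to 2, while complex II went from 1 to 2 through mev-1. Without replicate 2, complex IV went from 3 to 4 through cox-4. How many of all bound genes were among the strongest peaks of both replicates was not computed, so 8 of 12 is not a result about the members.

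**Figure D2:**
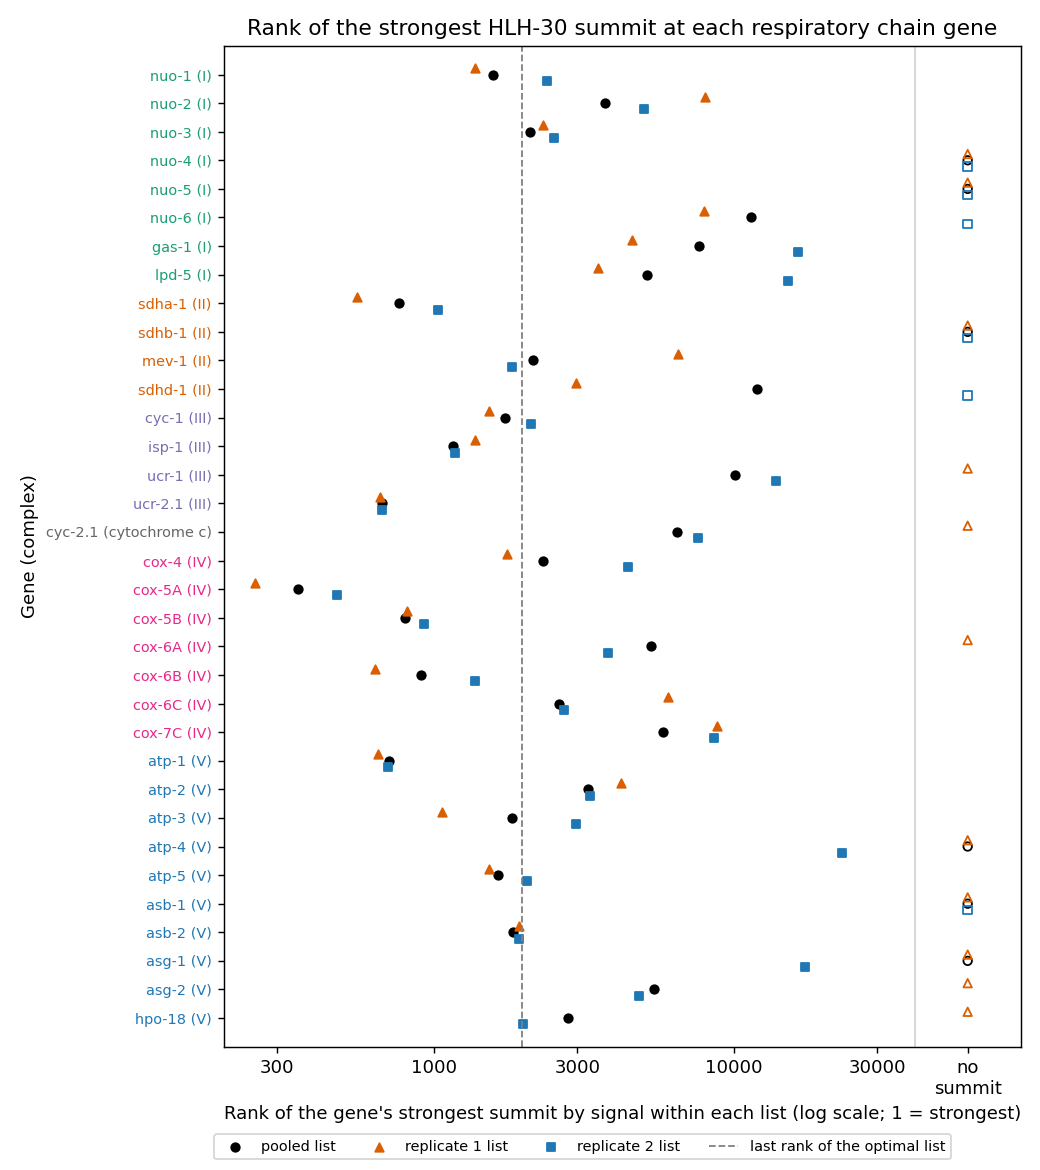
Rank by signal of the strongest summit in the window of each of the 34 genes (log scale, 1 is the strongest peak of a list) in the pooled list, replicate 1 and replicate 2, with open symbols at the right for genes without a summit and a dashed line at rank 1959. The gene cox-5A has the lowest rank number in all 3 lists, and nuo-4, nuo-5, sdhb-1 and asb-1 have no summit in any.

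Complex I oxidises NADH, and of its 8 genes among the 34 the bound one was nuo-1, which encodes the subunit that binds NADH. The peak, at chrII:11097398-11097741, had a signal of 54.6 and rank 1567 in the optimal list, with signals of 22.7 in replicate 1 and 28.2 in replicate 2. It lay 267 bp upstream of the nuo-1 start and 366 bp upstream of the opposite-strand gene rpl-36.A, which encodes a cytosolic ribosomal protein. Most other complex I genes had weaker pooled peaks. The accessory subunit gene nuo-3 came closest, with a pooled signal of 45.6 at rank 2087, against the lowest optimal signal of 47.7. Its replicate signals were 16.9 and 27.4, and the pooled summit lay 23 bp downstream of a start. The core subunit gene nuo-2 had a pooled signal of 32.3, with 10.3 and 18.5 in the replicates. The pooled signals of lpd-5, gas-1 and nuo-6 were 26.8, 21.3 and 16.9, and nuo-6 had no replicate 2 summit. The genes nuo-4 and nuo-5 had no summit in any list.

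Complex II, succinate dehydrogenase, also belongs to the citric acid cycle, and its bound gene was sdha-1, which encodes the flavoprotein that oxidises succinate. Its peak at chrX:8546098-8546441 had signal 84.1 and rank 766, with 37.7 and 45.9 in replicates 1 and 2, and lay 249 bp upstream of the start. No other protein-coding gene had this summit in its window. The membrane anchor genes differed between replicates. The gene mev-1, for the cytochrome b subunit, had a pooled signal of 45.1 at rank 2127, with rank 6472 in replicate 1 and rank 1817 in replicate 2. The order was turned in sdhd-1, which had rank 2974 in replicate 1 and no summit in replicate 2. The iron-sulphur subunit gene sdhb-1 had none in any list.

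Complex III had bound genes for cytochrome c1, for the Rieske iron-sulphur protein and for a core protein. The strongest was ucr-2.1, a core protein gene, at chrX:12017974-12018317, with signal 90.9 and rank 668, and 34.5 and 58.9 in the replicates. Its summit lay 283 bp upstream of the start and only 103 bp upstream of nmat-1, an opposite-strand gene for an NAD synthesis enzyme. The gene isp-1, for the Rieske protein, which takes electrons from ubiquinol, had a peak at chrIV:8136160-8136503 with signal 65.8 and rank 1156, and 22.8 and 42.5 in the replicates. That summit lay 277 bp upstream of isp-1 and 57 bp upstream of the opposite-strand gene islo-1. The third gene, cyc-1, encodes cytochrome c1, which hands electrons to cytochrome c, and had a peak at chrI:8024588-8024931 with signal 51.7 and rank 1726, and 21.3 and 30.3 in the replicates. It lay 338 bp upstream of the start, with no other gene sharing it. The other core protein gene, ucr-1, had a pooled signal of 18.2 at rank 10047 and no summit in replicate 1. Downstream of complex III, cyc-2.1 had a pooled signal of 23.5 at rank 6448 and no summit in replicate 1.

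Complex IV held the strongest peak of all 34 genes. It was at cox-5A, which encodes a nuclear subunit on the matrix side, at chrIII:12905011-12905354, with signal 129 and rank 352, and 58.3 and 71.5 in the replicates, ranks 253 and 476. The summit lay 308 bp upstream of the start, and no other protein-coding gene had it in its window. The gene cox-5B followed at chrI:9788546-9788889, with signal 82.2 and rank 799, and 30.3 and 49.0 in the replicates. Its summit lay 7 bp upstream of a start. At cox-6B the peak at chrIII:2785855-2786198 had signal 75.8 and rank 907, and 35.1 and 39.1 in the replicates. This summit was 175 bp upstream of the nearer of 2 annotated starts and so inside the intron of a long transcript of the same gene. It also lay 79 bp upstream of the opposite-strand gene Y71H2AM.20 and 825 bp upstream of nduc-2, a gene on the same strand. The other complex IV genes all had pooled peaks below the threshold. Among them cox-4 had pooled signal 42.8 at rank 2303, with rank 1750 in replicate 1 and 4443 in replicate 2. The pooled signals of cox-6C, cox-6A and cox-7C were 39.7, 26.5 and 25.0, and cox-6A had no summit in replicate 1.

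Complex V had peaks at genes of its catalytic head and of its stalk. The gene atp-1, for the alpha subunit of the head, had a peak at chrI:12652111-12652454 with signal 88.3 and rank 708, and 34.8 and 57.0 in the replicates. Its summit lay in the 5′ UTR, 6 bp downstream of the start, and 196 bp upstream of the opposite-strand gene mcrs-1. The beta subunit gene atp-2 had a pooled signal of 35.0 at rank 3248, below the threshold, with 13.1 and 23.5 in the replicates. Of the stalk genes, atp-5 had a peak at chrV:11123976-11124319 with signal 53.3 and rank 1636, and 21.3 and 30.8 in the replicates. This summit was 281 bp upstream of atp-5 and 38 bp upstream of lmtr-3, an opposite-strand gene for a homologue of a Ragulator subunit, part of the lysosomal platform for TORC1. The gene atp-3, for the protein that joins head and stalk, had a peak at chrI:5429750-5430093 with signal 49.9 and rank 1814, and 26.1 and 25.0 in the replicates. Its summit lay 14 bp upstream of a start. The weakest bound member was asb-2, for the stalk subunit b, at chrX:4469289-4469632, with signal 49.7 and rank 1831, and 18.5 and 31.8 in the replicates. It lay 305 bp upstream of the start. Among the rest, hpo-18, for subunit epsilon, had pooled signal 38.2 at rank 2792 and no summit in replicate 1, and asg-2 had 26.1. Summits at atp-4 and asg-1 were found in replicate 2 only, at signals of 5.97 and 7.72, and asb-1 had none.

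**Figure D3:**
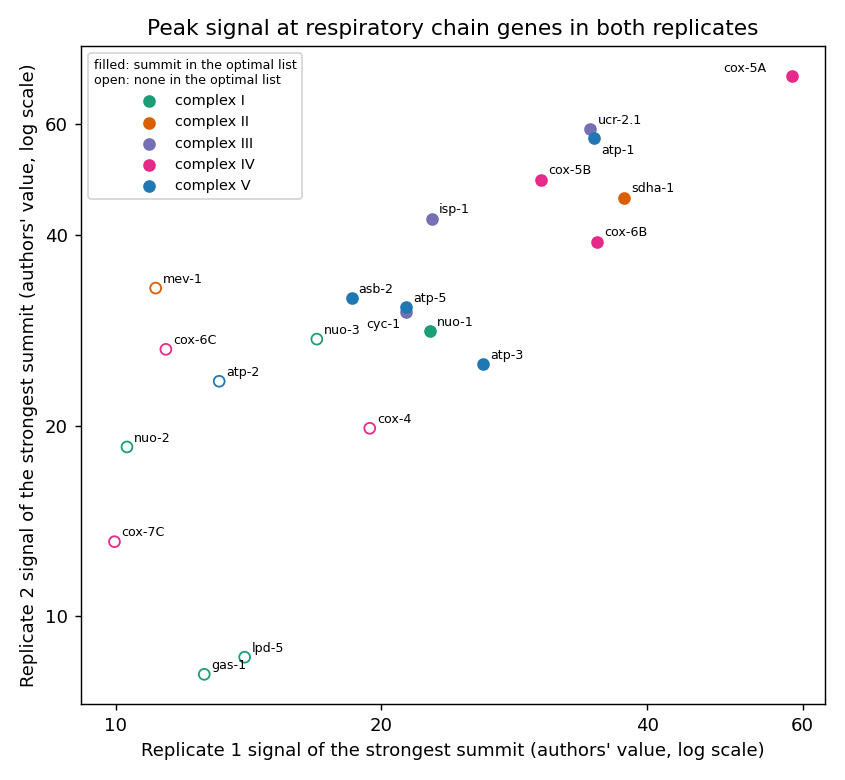
Authors' signal of the strongest summit in replicate 1 (x axis) and replicate 2 (y axis), both log scales, for the 21 genes with a summit in both lists, coloured by complex and filled where the optimal list has a summit. The filled points lie to the upper right, with cox-5A highest in both, and mev-1 stands out among the open points for its rank of 1817 in replicate 2 beside 6472 in replicate 1.

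Across the 21 genes with a summit in both replicate lists, the order of the signals was similar, with a Spearman's rho of 0.78. This is a correlation over genes from the same pair of libraries, given as a description. A summit was present in replicate 2 alone at 7 genes, in replicate 1 alone at 2 genes, nuo-6 and sdhd-1, and in neither at 4. The replicate 2 list is the longer of the pair. At the bound genes the optimal summit lay at most 42 bp from a replicate 1 summit and at most 33 bp from a replicate 2 summit, with medians of 10.5 and 4 bp.

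**Figure D4:**
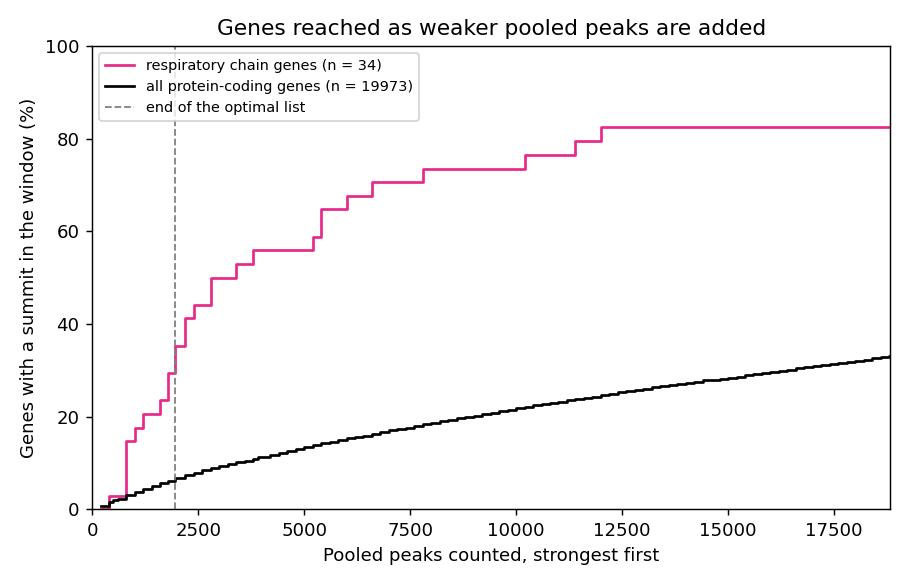
Percentage of the 34 respiratory chain genes and of all 19973 protein-coding genes with a summit in the window, as pooled peaks are added from the strongest to the weakest; the dashed line marks peak 1959. The members go from 2.94% at 500 peaks to 35.3% at 1959 and 82.4% at 18832, and all genes from 1.92% to 6.65% and 33.1%.

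The share of respiratory chain genes reached was near that of all genes in the 500 strongest pooled peaks and above it further down. Among members and among all genes alike, most of those reached came further down the list. Within the 500 strongest pooled peaks, 1 of 34 genes was bound, cox-5A, 2.94% against 1.92% of all genes. Within 1000 peaks the count was 6, 17.6% against 3.66%. Within 3918 peaks it was 19, 55.9% against 11.2%, and within 7836 peaks 25, 73.5% against 18.4%. The 16 members with a pooled summit but no optimal one ranked from 2087 to 11958, with a median rank of 5195 and signals from 16.4 to 45.6. The members nearest the threshold were asb-2 and atp-3 inside it, at 49.7 and 49.9, and nuo-3 and mev-1 outside it, at 45.6 and 45.1.

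**Figure D5:**
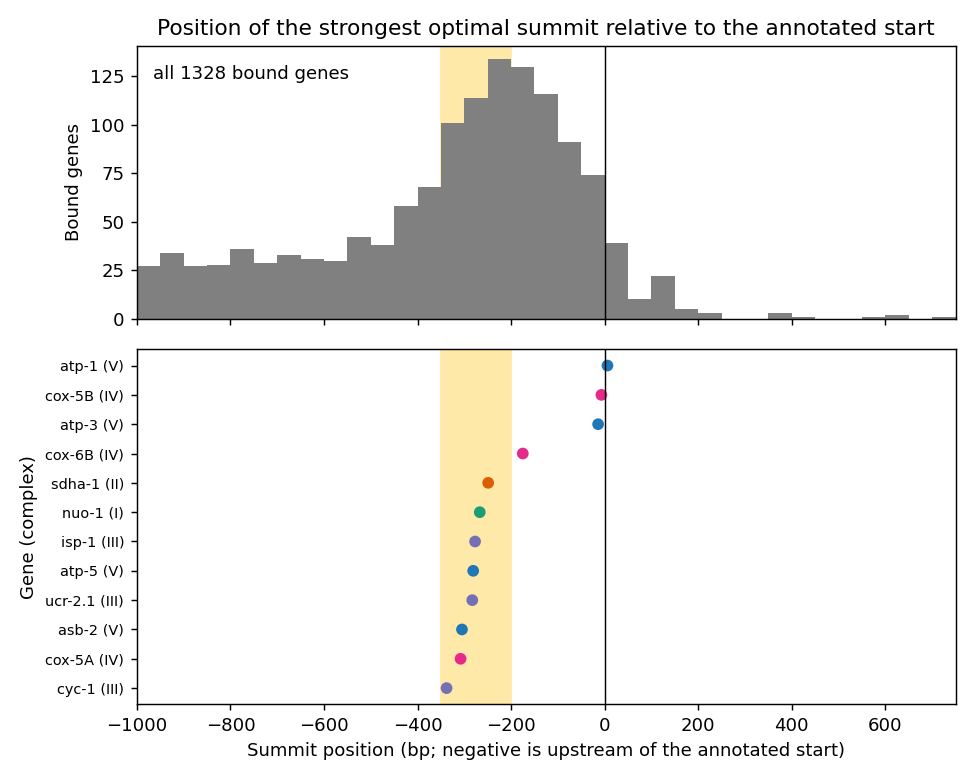
Position of the strongest optimal summit relative to the annotated start in bp, as a histogram of all 1328 bound genes (top) and as a point for each of the 12 bound respiratory chain genes coloured by complex (bottom), with the band from 200 to 350 bp upstream shaded; points over 200 bp downstream are genes with a further start. Of the 12 points, 8 lie in the shaded band and 3 lie within 20 bp of the start.

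Most bound summits lay some way upstream of a start, and a smaller set lay at the start itself. At 8 of the 12 bound genes the summit lay 200 to 350 bp upstream of the start, from 249 bp at sdha-1 to 338 bp at cyc-1. The share was 66.7%, against 26.5% of all bound genes. The summits of cox-5B, atp-1 and atp-3 lay within 20 bp of a start, 25% against 3.61%. These limits were chosen after the positions were seen, so the shares are descriptions. Among the 16 members with only a weaker pooled summit, 6 lay in the same band, 37.5%, against 17.5% of other genes with such a summit. None was within 20 bp of a start, but nuo-3 and lpd-5 were just past that limit, 23 and 25 bp downstream. In the optimal list 1643 of 1959 summits stand at the middle of their peak, and the median peak width was 344 bp, so positions are no finer than the authors' intervals allow.

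Summits were often shared with a neighbouring gene. Of the 12 bound genes, 7 had a summit that also lay in the window of another protein-coding gene, 58.3% against 44.4% of all bound genes. At each of the 7, nuo-1, isp-1, ucr-2.1, cox-6B, atp-1, atp-3 and atp-5, a neighbour ran on the opposite strand. At isp-1, ucr-2.1, cox-6B and atp-5 that neighbour's start was nearer to the summit. When a summit counted for no gene but the one whose start was closest, 8 of 34 genes remained, 23.5% against 5.11% of all genes, and complex III went from 3 to 1.

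Some unbound members lay directly behind a bound gene. Many C. elegans genes are transcribed in operons, in which a single promoter upstream of the first gene serves the genes behind it. A gene on the same strand ended under 500 bp upstream of 8 of the 34 members. Of these, 6 were not bound themselves, and at 4 of the 6 the first gene of the run was bound, 66.7%, against 12.6% of the 3852 unbound protein-coding genes placed this way. The gene nuo-4 lay behind rnp-7 and syf-2, and syf-2 had an optimal peak of signal 97.9 at rank 597. The gene nuo-5 lay 104 bp behind Y45G12B.2, with a peak of 52.1 at rank 1703. The cytochrome c gene cyc-2.1 lay 110 bp behind rpl-20, a ribosomal protein gene with a peak of 109 at rank 496. The ATP synthase gene atp-4 lay 95 bp behind alh-4, an aldehyde dehydrogenase gene with a peak of 49.7 at rank 1829. The remaining pair were nuo-2, behind T10E9.14, and asb-1, behind sel-2, whose first genes had no optimal peak. With peaks of first genes counted, the members reached 16 of 34, 47.1% against 9.07% of all genes, and complex I had 3 of 8. Whether these genes share transcripts was not tested.

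In some groups of paralogous chain genes, an optimal peak was at a single copy. These groups were chosen after the values were seen, no test was made, and other paralogous genes were not counted. The subunit b gene asb-2 had a peak and asb-1, known for its expression in the germline, had none. The core protein gene ucr-2.1 had one, at a summit nearer to nmat-1. Of the ucr-2.1 paralogues, ucr-2.2 had a pooled peak of rank 13430 and ucr-2.3 had none. The flavoprotein gene sdha-1 had one, while sdha-2 had a pooled peak of rank 11362. For the quinone-site subunit of complex I the peak was at nduf-2.2, with signal 92.5 at rank 643, and its paralogue gas-1 had a pooled peak of rank 7607. The nduf-2.2 summit lay 788 bp upstream and was nearer to dlc-1. Both cytochrome c genes and both subunit g genes lacked an optimal peak.

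Other genes of the pathway were read from 5 lists of 52 genes, of which 12 had an optimal peak, 23.1% against 6.65% of all genes. Genes of the citric acid cycle, which feeds electrons to the chain, had optimal peaks at 7 of 14, 50% against that 6.65%. They were idhg-1 at signal 92.5, sucl-1 at 67.8, aco-2 at 63.6, idhb-1 at 63.2, fum-1 at 50.7, cts-1 at 48.7 and suca-1 at 48.2. The aco-2 summit was nearer to eef-1B.1, and the idhg-1 summit also lay in the window of mlcd-1. Only idhb-1, idhg-1 and fum-1 were among the 1959 strongest peaks of both replicates. The gene cts-1 was in neither set, with ranks 2914 and 2213. The E-box CACGTG lay at the summits of idhg-1 and fum-1, and at none of the bound chain subunits, a difference that was not tested. Genes for ATP export and ATP synthase inhibition had peaks at 2 of 6, 33.3%. The inhibitor gene mai-2 had a signal of 202 at rank 169, above every chain subunit, with ranks 78 and 268 in the replicates and a summit 313 bp upstream of its start. The adenine nucleotide carrier gene ant-1.1 had 74.4 at rank 940, at a summit also in the windows of T27E9.2 and abcf-2. Further chain subunits had peaks at 2 of 11, 18.2%, at nduf-2.2 and at nduf-7, where the signal was 50.6. The nduf-7 summit lay 140 bp downstream of a start, and its peak had rank 3507 in replicate 1 and 1373 in replicate 2. Ubiquinone synthesis had 1 of 8, 12.5%, coq-3 at 54.8 with the summit 813 bp upstream and ranks 917 and 2322 in the replicates. Of 13 assembly factor genes, 0 had an optimal peak and 7 had a pooled one, where all genes stood at 6.65% and 33.1%. In lists this short, the counts for ubiquinone synthesis and assembly factors lie near the share of all genes and are not a result about them. The counts of 2 of 6 and 2 of 11 are also small and were not tested.

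The bound members were spread over all 6 nuclear chromosomes. There were 4 of 10 on I, 1 of 3 on II, 2 of 8 on III, 1 of 4 on IV, 1 of 4 on V and 3 of 5 on X. Annotated noncoding RNA genes covered the summits of nuo-1, sdha-1 and isp-1. The matching shares over all genes, by chromosome or under noncoding genes, were not computed, so these counts are not a result about the members. The 22 unbound members had their nearest optimal summit between 954 bp from a start, at cox-7C, and 145472 bp, at hpo-18, with a median of 10183 bp. No list held a peak on the mitochondrial chromosome, and the sources used here do not say whether the authors' calling covered it.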

How the data were processed

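Chromatin immunoprecipitated through GFP-tagged HLH-30 was sequenced in 2 biological replicates, per the labels. Per the file descriptions deposited with the data, each replicate's list came from its alignments and a control file, the pooled list from both replicates' alignments and that control, and the authors derived the optimal list from these 3 with a threshold on the irreproducible discovery rate. No aligner, peak caller or cut-off is given in the sources used here. The deposited value used is the authors' peak signal, column 7, whose scaling is not stated. The bound members have the same signal in the optimal and pooled lists, which were read on 1 scale, whereas signals of the 2 replicates are given side by side and compared by rank. Read depth is unknown, and the replicate lists differ in length. Exact (Clopper-Pearson) intervals cover counting of genes only. The optimal list holds the 1959 strongest pooled peaks.

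Only the ce11 lists were used, with Ensembl release 115 gene models of WBcel235 and RefSeq sequence of that assembly. Positions count from 1. All protein-coding transcripts' starts were used, and a gene's value is its strongest summit in the window. Either strand was read for hexamers, up to 50 bp on each side of a summit. Counting was tested on simulated positions. The members, lists and hexamers were chosen with earlier results of these data known, and no list was tested for enrichment. All members are named, as is every gene of the other lists with an optimal peak. Python 3.11.15, pandas 2.3.3 and scipy 1.17.1 were used.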

Additional observations from a re-analysis of the deposited data

How the results depend on the processing

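Of 63 alternative values, over 9 settings and 7 shares, 47 stayed inside the exact 95% interval of the value reported and 16 did not. Fewer or more peaks moved the shares by construction. With only the optimal peaks above the median signal, the members were at 17.6%, complex I at 0%, complex III at 25%, below complex IV at 42.9%, complex V at 10% and all genes at 3.61%. In the whole pooled list the members were at 82.4%, complex I at 75%, complexes III and IV at 100% and all genes at 33.1%. Leaving out a replicate gave 0% to 12.5% for complex I and 6.15% to 6.96% for all genes. The share of all genes was 4.97% with a window of 500 bp upstream to 100 bp downstream, 9.13% with 2000 bp upstream to 500 bp downstream, 5.11% with the nearest start only, 7.23% with any base of the peak and 9.07% with first genes of same-strand runs. In these 5 settings the members ranged from 23.5% to 47.1%. Complexes hold 4 to 10 genes each, so 1 gene moves a share widely and their intervals are wide. Staying inside therefore says little for a complex. Complex II at 75% in the whole pooled list and complex III at 25% above the median signal both counted as inside. No paired analysis was possible because the series has a single group.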

Other observations

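All 2080 hexamers, merged with their reverse complements, were counted after the values were seen and not tested. The most frequent was ACACTC, which lay within 50 bp of the summit at 5 of the 12 bound respiratory chain genes, asb-2, cox-5B, cox-6B, nuo-1 and ucr-2.1. It lay at 12.1% of optimal summits. The overlapping word CACTCC lay at 4 of the 12, asb-2, cox-6B, nuo-1 and ucr-2.1, against 4.19% of optimal summits.

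The E-box CACGTG nearest to a bound member's summit was 381 bp away at atp-5 and 669 bp away at ucr-2.1. Within 5000 bp of the summit, 10 of the 12 had a match, at a median distance of 2115 bp, and cox-6B and asb-2 had none. The same distances were not computed for other optimal summits, so they are not a result about these genes.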
